A study of Rattus norvegicus with 20 samples.

Results

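The genes described here are 200 of the 41012 probes of a rat expression array whose signal was higher after 24 h than after 6 h of diclofenac at each of 3 reference concentrations. They were chosen by measured values. The level of a probe was the log2 of its processed signal minus the array's 75th percentile, and the rule asked for a signal well above background on all 9 arrays of 24 h and a 24 h minus 6 h difference of group means over 0.8 at concentrations 1, 1/5 and 1/25 alike. Of the 24094 probes well above background on all 24 h arrays, 703 met the rule, and the 200 with the largest smallest difference were kept, which is 0.488% of the array. The rule leaves out the genes Akr1c14, Akr1c15, Thbd, Igtp and Aldh1a4, of which 2 probes also met the limits. With the same limit, 986 probes were lower at 24 h at every concentration. The label of this group as genes holds only in part: 51 of the 200 carry a gene symbol and 149 are sequence tags, assembled tag contigs, predicted loci or bare probes. Since the 24 h minus 6 h differences chose the members, they are given as a description with no test.

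The samples were primary cultures of neonatal rat heart cells, grown for 1 day before treatment per the labels. There were 20 arrays. Untreated cultures had 2, and each of 6 treated groups had 3, from diclofenac at 1, 1/5 or 1/25 of a reference concentration, taken after 6 h or 24 h. What the reference concentration was in molar terms, and when the untreated cultures were taken, is not stated. Nothing in the labels says that replicates were separate cultures or litters, so a p-value speaks only of the spread among these arrays, and that spread may be technical.

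Diclofenac is a non-steroidal anti-inflammatory drug that blocks the cyclooxygenases and so lowers prostaglandin synthesis. Primary cultures of the newborn heart hold beating cardiomyocytes together with fibroblasts, endothelial cells and other cells, and their transcripts shift as the cells attach, spread and adapt to culture. An expressed sequence tag is a single read of a cloned cDNA, often from the end of a transcript, and can stand for a stretch of a gene that the annotation of its time did not cover. A fall in the number of cells of a type and less RNA per cell cannot be told apart in such cultures.

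Array quality ran with the groups. The share of spots well above background was between 81.4% and 88.2% on 16 arrays and lower on 4: 64.1% and 76.5% on the third and first arrays of 1/5 for 24 h, 72.4% on the first of 1/25 for 24 h, and 75.1% on the second of 1/25 for 6 h. At one concentration no slide held both times, so time and slide cannot be told apart there. A single slide held both times, with the 3 arrays of concentration 1 for 24 h and the third array of 1/25 for 6 h. On that slide all 200 members were higher on the mean of the 24 h arrays than on the 6 h array, 187 of them by more than 0.8, with a median difference of 1.40 (log2, from 0.26 to 4.13), against -0.14 for all probes well above background at 24 h. These arrays also entered the rule and differ in concentration, so nothing is read from this. Of 10 cardiomyocyte markers measured, such as the contractile genes of the heart, 9 were well above background on all 20 arrays.

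The members' median level was -2.14 ± 0.17 (log2 minus the 75th percentile, SD, n = 2) in untreated cultures. At 6 h it was -2.41 ± 0.18, -2.12 ± 0.32 and -2.13 ± 0.46 (SD, n = 3 each) at concentrations 1, 1/5 and 1/25. At 24 h it was -0.93 ± 0.41, -0.03 ± 0.98 and -0.57 ± 0.82 in the same order. Single 24 h arrays gave medians of -1.34, -0.52 and -0.94 at concentration 1, of -0.14, -0.95 and 1.00 at 1/5, and of 0.09, -1.49 and -0.30 at 1/25. The 24 h medians all lay above the 6 h ones, the highest of which was -1.61, and the gap was small for the second array of 1/25. The median of all probes went the other way on this scale, from -2.10, -2.28 and -2.39 at 6 h to -2.46, -2.77 and -2.74 at 24 h.

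**Figure D1:**
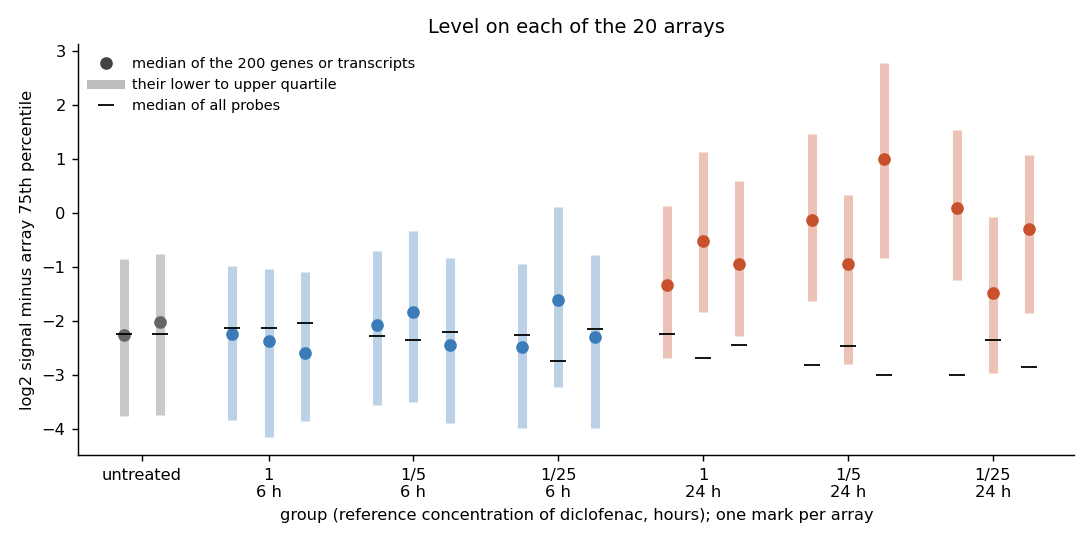
Level of the 200 members on each of the 20 arrays, as log2 signal minus the array's 75th percentile (dot, median; bar, lower to upper quartile), with the median of all probes as a dash. The 9 medians at 24 h run from -1.49 to 1.00 and lie above those of the 6 h and untreated arrays, and the third array of 1/5 for 24 h is the highest.

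Every 24 h array lay above every 6 h array, over all concentrations, for 51 of the 200 members (25.5%), against 0.411% of all probes well above background at 24 h. Within one concentration the 3 arrays of 24 h lay above the 3 of 6 h without overlap for 190 members at concentration 1 (19% of all such probes), for 160 at 1/5 (20.3%) and for 99 at 1/25 (13.7%). These shares follow from the choice of members, and nothing is read from them. The median difference was 1.54 at concentration 1, 2.01 at 1/5 and 1.48 at 1/25. Just inside the limit of rank, BF282908 and TC563787 both had smallest differences of 1.12, and just outside it BF560172 and Svs4, a seminal vesicle protein gene, both had 1.12. At the limit of 0.8, AW918668 and AI228766 lay just above it, both at 0.80, and AI228675 and BQ201147 just below it, both also 0.80 after rounding.

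The members of highest rank were unnamed tags. BF404426 (rn3, chr5:2671331-2671390, plus strand) read -7.95 and -6.44 in untreated cultures and from -8.26 to -6.62 on the 9 arrays of 6 h, none of which was well above background. At 24 h it read -3.71, -3.10 and -4.25 at concentration 1, -2.53, -4.06 and 0.13 at 1/5 and -3.24, -5.29 and -3.95 at 1/25. Because the 6 h values are only a bound, the 24 h signal was at least 6.22-fold, 15.8-fold and 3.92-fold higher at concentrations 1, 1/5 and 1/25. These bounds set the mean of the bright group against a mean over the dim group's arrays. Each of those arrays entered with the larger of the probe's own value and the array's lowest signal well above background. A probe that did not pass could still read above that lowest signal. Angpt2 read -5.95 on the first array of concentration 1 for 6 h, where the lowest was -5.97. The bounds are therefore approximate. BI275292 (chr16:75942308-75942367, minus strand) had a wide 6 h range, from -7.00 to -3.74 with a median of -5.24, and lay between -2.57 and 0.33 with a median of -1.97 at 24 h. In all, 9 members had at least 1 group of 6 h in which no array was well above background, with bounds from 1.91-fold to 15.8-fold, while 170 members were well above background on all 20 arrays.

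The next tag by rank, AA899447 on chromosome 13, shows a pattern that recurred among the members: a second member, AI229321, read the same stretch of genome on the other strand. The probe of AA899447 lies at chr13:69376372-69376431 on the minus strand and that of AI229321 at chr13:69376366-69376425 on the plus strand, with 54 bases in common. AA899447 was not well above background on any 6 h array and was at least 5.82-fold, 14.1-fold and 4.91-fold higher at 24 h at concentrations 1, 1/5 and 1/25. AI229321, well above background on 2 of the 9 arrays of 6 h, was at least 7.64-fold higher at concentration 1, and its measured means differed by 4.08 and 2.12 (log2) at 1/5 and 1/25. The same held for Adgrl3, an adhesion receptor gene, with the tag AW528831, for Kidins220, a scaffold of neurotrophin receptors, with AI071379, and for Tnni3k, a cardiac kinase that binds troponin I, with BI293060. The sequences below are 30 bases of the stretch that both probes of a pair share, each written 5′ to 3′ on its own strand with G and C in capitals, so that a reader can see that the partners are reverse complements and how much A and T they hold.
AA899447: aaataCattCttGGGtttaGaGttCttGtt
AI229321: aaCaaGaaCtCtaaaCCCaaGaatGtattt
Adgrl3: tGCatattttatGatttGCtGtattaaCtG
AW528831: CaGttaataCaGCaaatCataaaatatGCa
Kidins220: ttGaGtGtaattGaGCattttCatGaaGtG
AI071379: CaCttCatGaaaatGCtCaattaCaCtCaa
Tnni3k: GtGtaGataGCtGGGttGaCCCttatGtat
BI293060: ataCataaGGGtCaaCCCaGCtatCtaCaC

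Of 185 members placed on the genome as one stretch, 30 (16.2%) had a probe of the opposite strand that overlapped theirs, against 8.89% of placed probes well above background at 24 h. Counting probes within 300 bases, 79 members (42.7%) had one, against 25.0%. The overlapping probes made 22 pairs, in 8 of which both probes were members. Of the 14 partners that were not members, 11 were well above background on all 24 h arrays. All 11 were higher at 24 h at every concentration, 8 of them by more than 0.8, with median differences of 1.09, 1.40 and 1.06 at 1, 1/5 and 1/25. Among the 23894 other probes well above background, 30.4% were higher at every concentration and 2.11% by more than 0.8, with medians of -0.05, 0.19 and 0.15. Partners overlap in sequence and so share their base composition. Signal on both strands was not particular to the members. Of 1010 overlapping pairs without a member in which 1 or both probes were well above background, both were in 88.6%, against 19 of 22 pairs with a member (86.4%). The differences of both probes also lay close in pairs without a member, with a median gap of 0.21, 0.25 and 0.18 at 1, 1/5 and 1/25. In pairs with a member the median gap was 0.24, 0.31 and 0.24. A rise of the partner thus follows largely from the choice of the member, and nothing is read from it.

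Tags on the strand opposite to a named gene brought in named genes that are not members. Tag AI102739 overlapped the probe of Hopx, a homeodomain cofactor of the developing heart, by 59 bases. AI102739 was higher at 24 h by 1.32, 2.31 and 1.44 at 1, 1/5 and 1/25, and Hopx by 0.83, 1.04 and 0.98. Rab6b, a Golgi GTPase gene opposite CO404744, had 1.09, 2.01 and 1.21. Slc24a3, a sodium-calcium exchanger gene opposite BE098153, had 1.17, 1.61 and 0.79. Within 300 bases, 26 unnamed members lay opposite 26 named genes, 11 of which also have a member probe, and of the others 12 were well above background, all 12 higher at every concentration and 7 by more than 0.8. Nearby pairs without a member were not compared, and nothing is read from these counts. The 11 genes with a member probe include Angpt2, Rgs7, Adgrl3, Scn7a, Tgfa, Man1a1 and Ifit1.

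Among receptors and G protein signalling genes, Agtr1a, the angiotensin II receptor that drives vasoconstriction and cardiac growth, stood apart by how tight its 6 h values were. Its probe (chr17:40632340-40632399, minus strand) read -3.60 and -3.81 in untreated cultures and between -3.71 and -3.29 on all 6 h arrays. At 24 h it read -1.65, -1.06 and -1.10 at concentration 1, -0.58, -1.24 and 1.42 at 1/5 and -0.61, -1.63 and -1.29 at 1/25. Every 24 h array was above every 6 h array, and the differences were 2.31, 3.21 and 2.44. Another Agtr1a probe had -0.47, -0.11 and -0.19. Rgs4, which speeds up GTP hydrolysis by G proteins, ran from -4.18 to -2.76 at 6 h (median -3.77). At 24 h it ran from -2.63 to -0.09 (median -1.32), without overlap. Another Rgs4 probe had differences of -0.72, 0.00 and -0.05. Rgs7, of the same family, ran from -4.05 to -2.50 and from -2.46 to 1.12, a gap of the 2 times that was narrow. Adgrl3 ran from -3.06 to -1.73 and from -1.11 to 0.47. The lysophosphatidic acid receptor genes Lpar1 and Lpar3 had differences of 1.83, 2.16 and 1.25 and of 1.33, 2.33 and 1.14, and in both the 2 times overlapped. Phospholipase genes were present as Plce1 (1.71, 2.14 and 1.22), the catalytically inactive Plcl1 (1.22, 1.54 and 1.31) and Pld1 (1.77, 1.47 and 1.16).

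Enzymes that act on carbonyls, steroids and drugs formed another group. Akr1c1, an aldo-keto reductase, read -2.98 and -1.97 in untreated cultures and from -2.87 to -1.81 at 6 h (median -2.57). At 24 h it ran from -1.64 to 2.18 (median -0.58), with no overlap and differences of 1.91, 2.70 and 1.81. Aldh1a1, which makes retinoic acid from retinaldehyde, ran from -4.52 to -2.62 at 6 h and from -3.40 to 0.71 at 24 h, so that the times overlapped, with differences of 1.81, 2.29 and 2.05. Gsta1, a glutathione transferase, had 1.20, 2.45 and 1.13, and Cyp27b1, the enzyme that activates vitamin D, 1.25, 1.86 and 1.31. The array files call the first and the third of these Akr1c6 and Gsta3. Whether probes of such families read related genes was not tested, and the same holds for Ceacam4 and Pcdhb6.

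Vascular genes were among the dimmest members. Angpt2, a secreted antagonist of the endothelial receptor Tie2, was not well above background on any 6 h array, where it read from -7.30 to -5.95. At 24 h it read -5.45, -3.92 and -4.87 at concentration 1, -5.24, -5.25 and -2.20 at 1/5 and -3.90, -4.86 and -4.18 at 1/25. The signal of this probe was at least 2.87-fold, 3.75-fold and 3.51-fold higher at 24 h. The second-ranked tag BI275292 lies 10 bases from this probe on the other strand. Other Angpt2 probes did not share the difference, with -0.70, -0.87 and -0.23 and with 0.05, -0.68 and -0.11 at 1, 1/5 and 1/25. Each of them was well above background on only 4 arrays of 24 h. Vwf, which carries clotting factor VIII and tethers platelets, ran from -7.63 to -5.06 at 6 h and from -4.66 to -3.09 at 24 h, but its untreated arrays read -3.49 and -6.23, the former above the 24 h median of -4.36. Another Vwf probe had differences of -0.25, 1.34 and 0.55. Flt1, a VEGF receptor of endothelium and no member, went down at 24 h, with -2.57, -2.43 and -2.44 (limma, Benjamini-Hochberg adjusted p = 0.030, 0.0495 and 0.14). The summed linear signal of 9 endothelial markers, Vwf and Flt1 included, ran from 2.84 to 3.12 in untreated cultures (in units of the array's 75th percentile). It was 2.37 to 3.21, 2.15 to 2.86 and 2.76 to 4.22 at 6 h, and 2.82 to 4.26, 4.33 to 10.9 and 3.03 to 6.63 at 24 h. The median log2 difference of the endothelial list was -0.12, 0.36 and -0.17 at 1, 1/5 and 1/25. Of these markers 4 were well above background on all 20 arrays and none on 0 arrays. The part of endothelial cell number, or of the array's 75th percentile, in these values was not tested.

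Secreted and matrix genes included the neighbours Omd and Ogn, small leucine-rich proteoglycan genes 27999 bases apart on chromosome 17. Ogn ran from 0.28 to 1.42 at 6 h and from 1.20 to 4.40 at 24 h, with differences of 1.38, 1.98 and 1.29. Omd had 1.62, 1.71 and 2.08, and on the third array of 1/5 for 24 h it read 0.06 where the other 8 arrays of 24 h lay at or below -2.02. Nppc, the precursor of C-type natriuretic peptide, ran from -6.86 to -4.04 at 6 h and from -4.02 to -1.24 at 24 h, so that the times only just did not overlap. C1qtnf7, a secreted C1q-like protein gene, had differences of 2.16, 2.01 and 2.12, Igfbp4, which binds insulin-like growth factors, 1.18, 2.49 and 1.20, and Tgfa, a ligand of the EGF receptor, 1.38, 1.79 and 1.20. The summed linear signal of 10 fibroblast markers, none of them a member, ran from 15.7 to 18.1 in untreated cultures. At 6 h it was 13.7 to 17.7, 15.3 to 17.1 and 15.9 to 17.1, and at 24 h 11.3 to 15.9, 17.3 to 82.9 and 17.7 to 21.7. It was thus higher without overlap at 1/5 and 1/25 but not at concentration 1. The sum of 10 cardiomyocyte markers did the same, with 16.4 to 17.2, 16.7 to 19.3 and 16.4 to 20.6 at 6 h and 13.4 to 17.5, 19.4 to 69.8 and 20.7 to 22.2 at 24 h. Both sums are divided by the array's 75th percentile, which was 3165 to 13095 at 1/5 and 10726 to 13103 at 1/25 for 24 h. It was 14579 to 18592 on the 6 h arrays and 14356 to 21937 at concentration 1 for 24 h. The part of this scaling in the sums was not tested. The median log2 differences of the lists were -0.24, -0.18 and 0.22 for fibroblast and -0.11, 0.03 and -0.01 for cardiomyocyte markers. The part of these cell types in the members' values was not tested. Of the 10 markers 6 were well above background on all 20 arrays and none on 0 arrays.

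Muscle genes were few. Perm1, a regulator of muscle energy metabolism, ran from -7.57 to -5.21 at 6 h, where it was well above background on 1 of 9 arrays, and from -5.99 to -3.31 at 24 h, at least 2.65-fold higher at concentration 1 and 1.91-fold at 1/25. Asb18 and Asb12, ankyrin-repeat genes with a SOCS box, had differences of 2.11, 1.47 and 2.09 and of 1.20, 2.07 and 1.31. Tnni3k had 1.16, 2.44 and 1.19. No member was among the 10 cardiomyocyte markers.

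Regulators of transcription and RNA were led by Hoxa9, a homeobox gene of axial patterning and blood cells and the highest-ranked named member. Its probe (chr4:80802826-80802885, minus strand) read -2.77 and -2.89 in untreated cultures. At 6 h it read -2.25, -2.20 and -2.48 at concentration 1, -3.10, -2.73 and -2.43 at 1/5 and -5.02, -4.00 and -0.26 at 1/25. At 24 h it read -0.11, -0.10 and 0.67, then 0.07, -1.08 and 1.64, then 0.40, -1.07 and -0.93. The third array of 1/25 for 6 h lay among the 24 h values, and on the slide that held it together with concentration 1 for 24 h the difference was 0.41, against group differences of 2.47, 2.97 and 2.56. Pou3f4, a neural POU factor gene, ran from -4.62 to -2.92 at 6 h and from -2.70 to -0.36 at 24 h. Elavl2, an RNA-binding protein gene of neurons, ran from -2.03 to -1.17 and from -0.71 to 0.77. Both member probes kept the times apart on all arrays. Another Elavl2 probe, 422 bases away and well above background on all 20 arrays, had differences of -0.15, -0.12 and 0.22. Chd6, a chromatin remodeller, and Aar2, a splicing factor, had 1.37, 1.94 and 1.15 and 1.31, 1.66 and 1.18. Senp7, a SUMO protease gene, had 1.17, 1.42 and 1.68.

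Transport, glycan and immune genes made up most of the rest. Scn7a, a sodium-sensing channel, had differences of 1.63, 1.44 and 2.09, Slc44a5, a choline transporter-like gene, 2.37, 1.60 and 2.24, and Slc37a4, the glucose-6-phosphate transporter of the endoplasmic reticulum, 1.27, 1.84 and 1.15. Man1a1, which trims mannose in the Golgi, had 1.66, 2.17 and 1.42. Irak4, a kinase of Toll-like and interleukin receptors, ran from -2.43 to -1.32 at 6 h and from -1.25 to 0.36 at 24 h. Ifit1, an interferon-induced gene, ran from -0.77 to 0.76 and from 0.39 to 1.78. Pcdhb6, a cell adhesion gene, was at least 2.06-fold higher at concentration 1 and 3.18-fold at 1/5. The remaining named members, Ankrd55, Map7d2, Ceacam4, Kidins220, Elmo1, C10h17orf58, Nnat, Cttnbp2, Nrsn1, Bace1, Clhc1, Naalad2 and Acyp1, had differences between 1.13 and 2.75. Of the 51 named members, 13 had every 24 h array above every 6 h array: Agtr1a, Rgs4, Adgrl3, Akr1c1, Angpt2, Rgs7, Irak4, Vwf, Nppc, Pou3f4, Elavl2, Aar2 and Naalad2. The share was 25.5% over all 200 members and 0.411% over all probes well above background at 24 h. The count follows from the choice of members, and nothing is read from it.

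**Figure D2:**
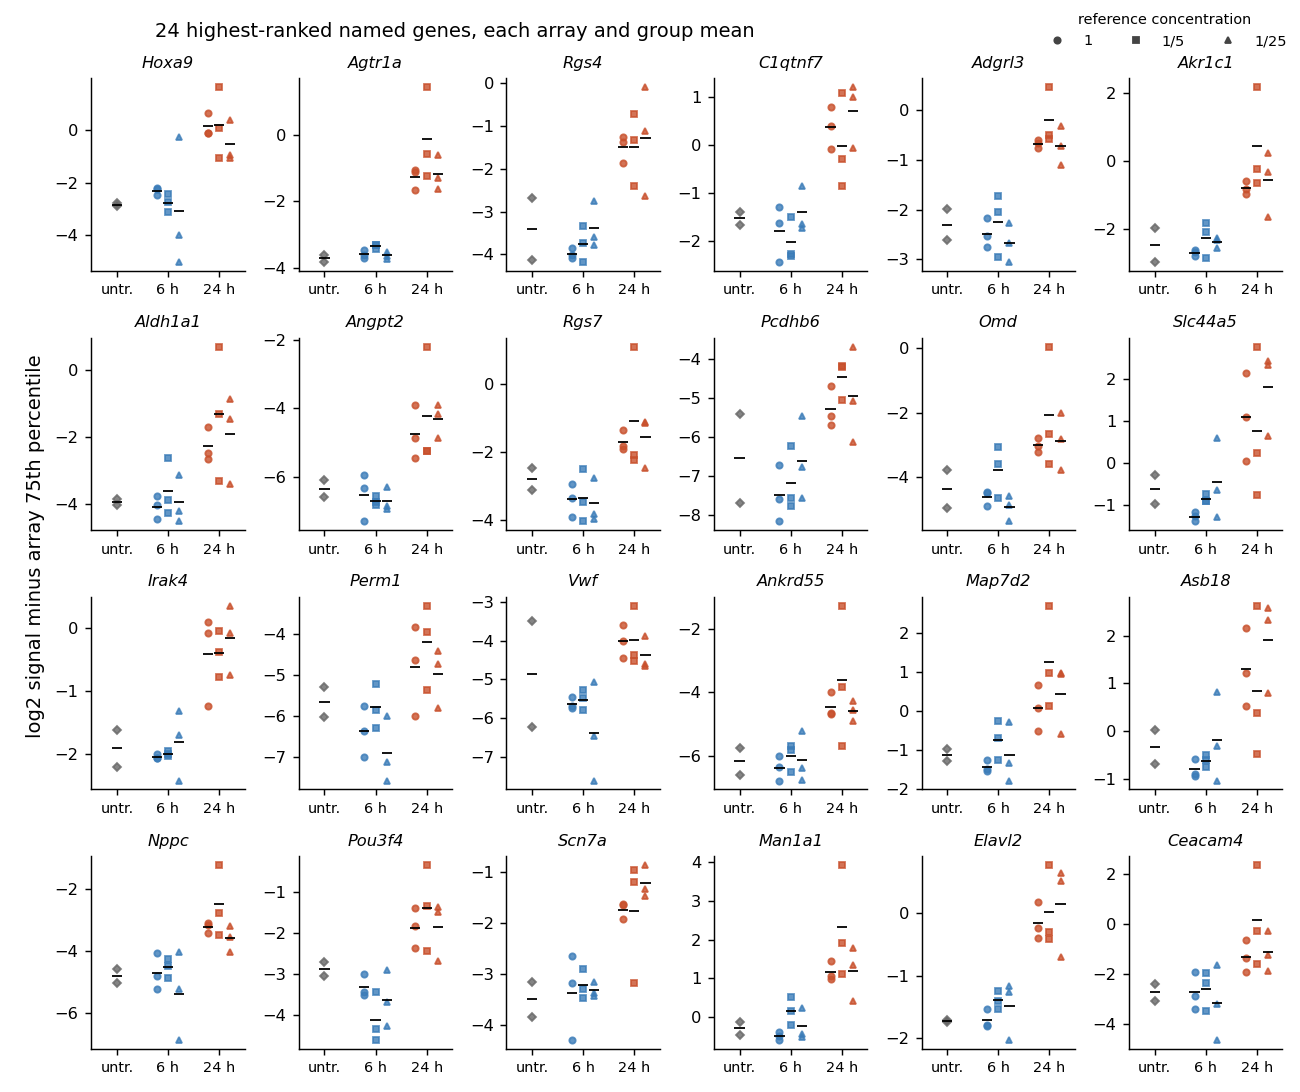
The 24 highest-ranked named members on every array, as log2 signal minus the array's 75th percentile, for untreated, 6 h and 24 h cultures (circle, square and triangle for concentrations 1, 1/5 and 1/25; dash, group mean; each panel has its own axis). In 11 of the 24 every 24 h array lies above every 6 h array, as for Agtr1a, against 0.411% of all probes well above background at 24 h. This follows from the choice of members. The highest 24 h point is often a square, the third array of 1/5.

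In the members, untreated levels lay near those of 6 h. The untreated mean was nearer to the 6 h than to the 24 h mean for 197 of the 200 members, both untreated arrays were inside the range of the 6 h arrays for 170, and both were below every 24 h array for 139. The share over all probes was not counted for these. Members were chosen as higher at 24 h, so nothing is read from the counts. The median of untreated minus 6 h was 0.03 and that of 24 h minus untreated 1.68. Drug was compared with no drug as the mean of the 6 treated groups against the untreated arrays, of which the rule used only the former. By limma with Benjamini-Hochberg adjustment 0 members passed, as did 0 of all 35055 probes tested (0%), while 42 members and 784 probes had an unadjusted p under 0.05. The members' median was 0.82 (median SE 0.459), against -0.08 for all probes, 197 of 200 were above 0, and all 42 were higher in treated cultures. With untreated levels near those of 6 h, this sign follows largely from the choice of members, and nothing is read from it. The smallest adjusted p was 0.79, for AW916092 at 1.75 ± 0.39 (SE, n = 18 treated and 2 untreated arrays, limma). Agtr1a had 1.53 ± 0.44 and Hoxa9 1.44 ± 0.80, both with an adjusted p of 0.95 by limma. The lowest value was that of Vwf, -0.13 ± 0.59. With array weights 22 members passed, as did 259 of 35055 probes. Both untreated arrays shared a slide with 6 h arrays of concentration 1 and with no 24 h array. No 24 h array was scanned on the day of the untreated arrays. Nearness to 6 h thus cannot be told apart from slide and scan day. Treatment cannot be told apart from these, or from the unstated time of the untreated cultures, in these values.

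The highest mean at 24 h was at 1/5 for 162 members, at 1/25 for 35 and at 1 for 3, against 52.5%, 18.2% and 29.3% of all probes well above background. The slide with the 24 h arrays of concentration 1 held no 24 h array of 1/5 or 1/25. Concentration 1 and slide thus cannot be told apart at 24 h. The slide of the 1/5 arrays also held the first array of 1/25. For concentration 1 minus 1/5 at 24 h the members' median was -0.85 and 16 of 200 were above 0. By limma with adjustment over all 35058 probes 0 members and 0 probes passed (0%), and 34 members, all lower at concentration 1, and 7301 probes had an unadjusted p under 0.05. The smallest adjusted p was 0.13, for AA875314 at -1.19 ± 0.38 (SE, n = 3 and 3, limma). For 1/5 minus 1/25 the median was 0.61 and 163 were above 0, and 0 members passed (0.00285% of all probes) with 12, and 2288 of all probes, at an unadjusted p under 0.05. For 1 minus 1/25 the median was -0.26 and 34 were above 0, and 0 members passed (0.00285%) with 2, and 1759 of all probes, at an unadjusted p under 0.05. Some settings called a large share of the array, members included. For 1 minus 1/5, 77 members passed with 9539 of 35109 probes without the second array of 1/5 for 24 h. With slide as a random block 71 passed with 9874 of 35058, and with array weights 55 with 10071. The random block had a fitted correlation within slides of -0.16, and it does not tell concentration from slide. For 1 minus 1/25, array weights called 91 members and 17692 probes. The direction changed with the arrays kept, and its cause was not tested. Without all 4 dim arrays, which leaves the second array of 1/5 for 24 h alone in its group, the members' medians turned. They were 0.28 for 1 minus 1/5, -0.15 for 1/5 minus 1/25 and 0.06 for 1 minus 1/25. Without the third array of 1/5 alone the first 2 were -0.29 and 0.00, and without the first array of 1/25 alone the last was 0.06. With slide as a fixed block 1/5 minus 1/25 was -0.08.

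At 6 h the concentrations gave 0 members past the threshold in each of the 3 comparisons by limma, against 0.00571% of all probes for 1 with 1/5, 0% for 1/5 with 1/25 and 0.0171% for 1 with 1/25. The members' medians were -0.41, 0.07 and -0.37, and 7, 3 and 1 of them had an unadjusted p under 0.05, as did 1031, 994 and 1817 of all probes. With array weights 41 members passed for 1 with 1/5, as did 4219 of 35056 probes. No slide held 6 h arrays of 1/25 together with 6 h arrays of 1 or 1/5. Slide and concentration thus cannot be told apart in the comparisons with 1/25 at 6 h.

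The order of concentrations at 24 h ran with single arrays. Of the 200 members, 153 had their highest value of all 20 arrays on the third array of 1/5 for 24 h, the dimmest of the series, and 24 and 15 on other dim arrays, the first of 1/25 and the first of 1/5. Their lowest 24 h value was on the second array of 1/25 for 107 members and on the first of concentration 1 for 47. On the third array of 1/5, 162 members were the highest of the 3 replicates (56.0% of all probes well above background) and 15 the lowest (29.7%). The 15 had a median probe GC of 41.7%, against 35% for the 162, and include C1qtnf7, Slc44a5, Irak4, Asb18, Scn7a and Elavl2. Without the 4 dim arrays the group of 1/5 for 24 h rests on its second array alone, and the arrays kept also entered the rule. In that setting 194 members were higher at 24 h at every concentration and 119 by more than 0.8. The smallest difference was then 1.34 for Rgs4, 0.43 for Perm1, 0.32 for Ankrd55, 0.29 for Aldh1a1 and 0.19 for Omd.

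The members' probes were poor in G and C. Their mean GC content was 36.4% ± 7.13 (SD over 200 probes), from 15% to 55%, against 43.4% for all probes well above background at 24 h and 46.9% for the 986 lower ones. A GC content of 35% or less was found in 57% of the members and 21.2% of the background, and exactly 35% in 39% and 15.3%. The differences of all probes varied with GC content. Those up to 30% had median differences of 0.29, 0.85 and 0.42 at 1, 1/5 and 1/25, and those from above 50% to 55% had -0.33, -0.14 and -0.18. The 638 probes above 55% had -0.22, 0.11 and -0.21, so the fall did not go on at 1 and 1/5. Members made up 2.61% of the first band (32 of 1225 probes) and 0.188% of the second (9 of 4798). Set against the median of their own band, the members were higher by a median of 1.39, 1.51 and 1.17, and 200, 171 and 184 of them by more than 0.8. With each array's median at the same GC content taken off, 191 members stayed above 0.8 at every concentration. Members were chosen for large differences, so these counts follow largely from the choice, and nothing is read from them.

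**Figure D3:**
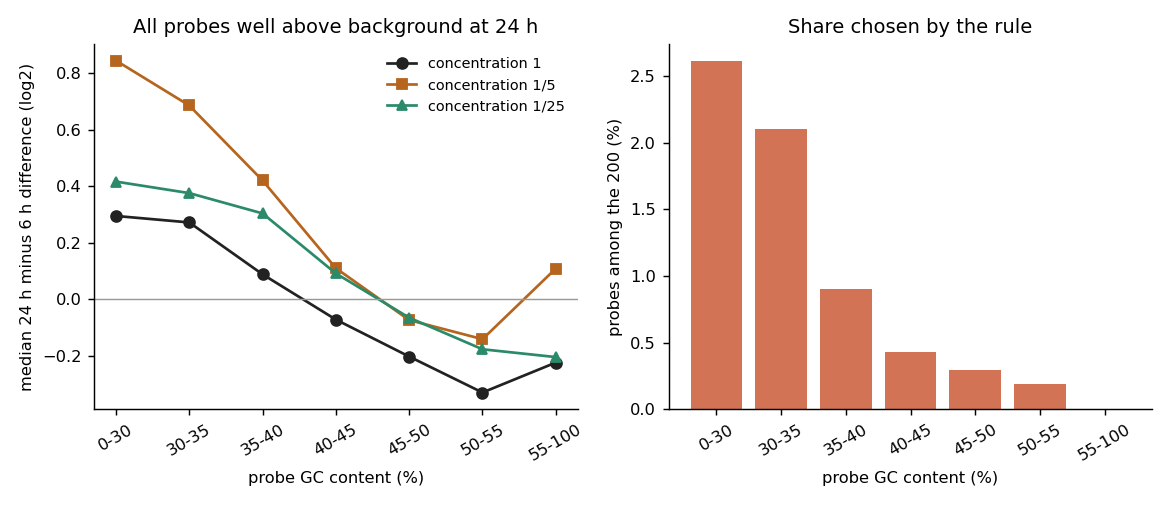
Left, median 24 h minus 6 h difference (log2) of all probes well above background at 24 h, by GC content of the probe in percent, for each concentration. Right, share of each band that is among the 200 members in percent, which falls from 2.61% up to a GC content of 30% to 0.188% between 50% and 55%.

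The GC slope also differed between single arrays. The gap between the median of 5027 probes with GC up to 35% and that of 6242 probes with GC of 50% or more was 1.03 in untreated cultures, 0.66, 1.35 and 1.16 at 6 h and 1.52, 2.14 and 1.81 at 24 h. It was widest, at 2.82, on the third array of 1/5 for 24 h and narrow, at 0.87, on the second array of 1/25 for 24 h, and the members' median was highest and lowest of the 24 h arrays on the same 2 arrays. On that second array of 1/25 the members' median was -1.49, where 6 h and untreated arrays with gaps of 0.84 to 0.92 had medians from -2.48 to -2.25. The part of the GC slope in the members' differences was not tested.

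**Figure D4:**
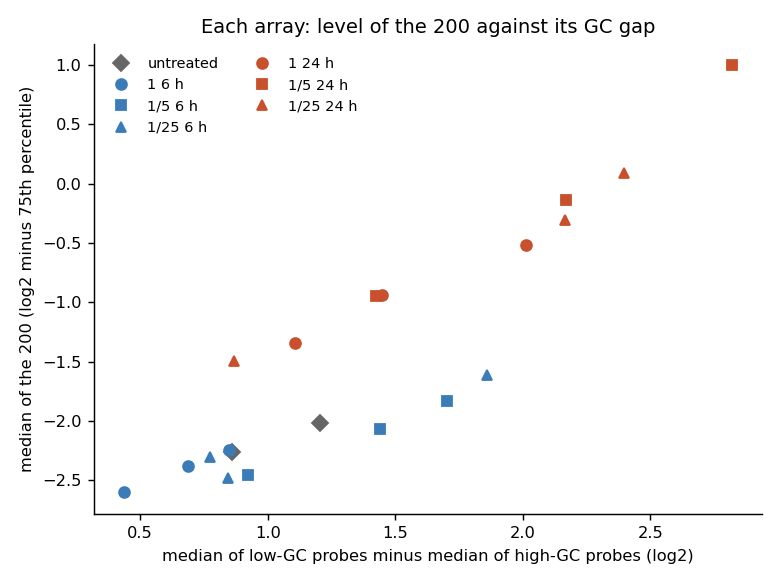
Median level of the 200 members on each array (log2 minus the 75th percentile) against the median of low-GC probes minus that of high-GC probes on the same array (log2), with colours for the time and marks for the concentration. The gap of untreated and 6 h arrays reaches 1.86. The 4 arrays of 24 h with smaller gaps, from 0.87 to 1.45, lie above untreated and 6 h arrays of a like gap, and the 5 with gaps of 2.01 or more have none to be set against.

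A second probe of the same gene seldom shared the difference. Of the 51 named members, 22 have 28 other probes on the array, and 16 of those were well above background on all 24 h arrays. Their median differences were 0.27, 0.26 and 0.38 at 1, 1/5 and 1/25, where the member probes beside them had 1.41, 2.16 and 1.58. Of the 16, 7 were higher at every concentration and 1 by more than 0.8, the probe of Slc37a4 that starts 20 bases upstream of the member (1.23, 1.77 and 0.96). The other probe of Agtr1a, 1023 bases away, had -0.47, -0.11 and -0.19, and that of Rgs4, 2681 bases upstream, had -0.72, 0.00 and -0.05. Partial sharing was seen for Ogn (0.20, 1.06 and 0.57), Ceacam4 (0.33, 1.91 and 1.29) and Cttnbp2 (0.35, 1.47 and 1.05). Other probes well above background had -0.18, 0.05 and 0.21 for Igfbp4 and 0.43, 0.14 and 0.11 for Man1a1. That of Senp7 had 0.42, -0.23 and 0.11. Those of Lpar1 had 0.60, -0.28 and 0.66, and 1.17, 0.48 and 0.81. The member was the probe nearer the transcript's end in 23 of 27 pairs with an order, and its median GC content was 35% against 41.7%. Among 1475 other genes with probes in order, the downstream probe had the higher difference in 65.4%, 63.7% and 65.0%, by a median of 0.28, 0.40 and 0.25.

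**Figure D5:**
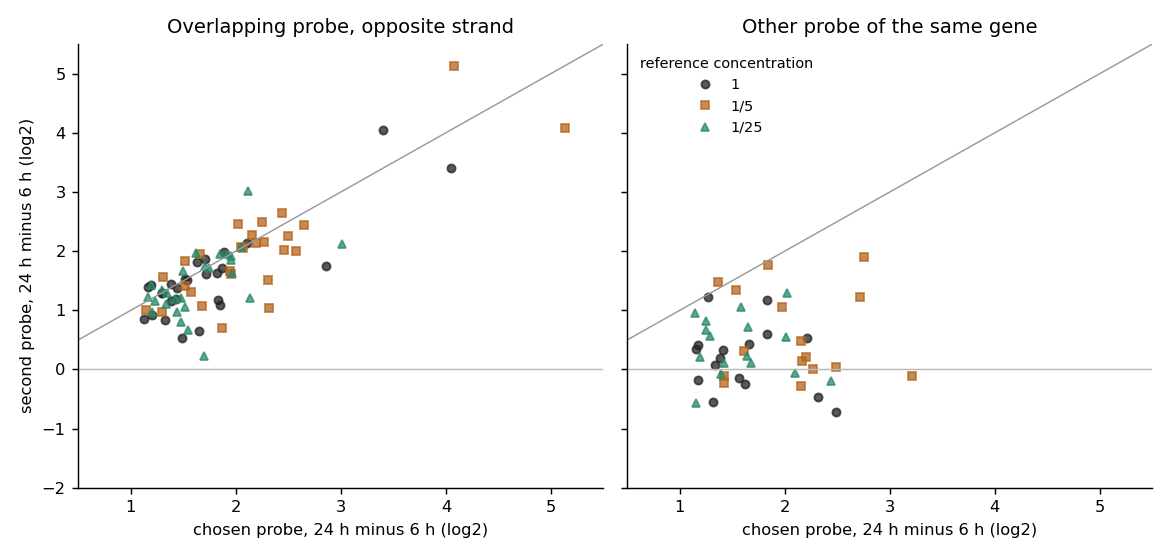
The 24 h minus 6 h difference (log2) of a second probe against that of the member probe, at the 3 concentrations, for probes well above background at 24 h. Left, overlapping probes of the opposite strand, where pairs of 2 members appear from both sides and partners that are not members have medians of 1.09, 1.40 and 1.06; the line marks equal values. Right, other probes of the same gene, with medians of 0.27, 0.26 and 0.38.

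Named genes next to unnamed members gave a like picture. Of 141 unnamed members with a position, 34 have a probe of a named gene within 10000 bases upstream on the same strand, and 23 of these were well above background at 24 h. Their medians were 0.36, 0.58 and 0.27, 12 were higher at every concentration, and 1 by more than 0.8. That one was Dclk1, a microtubule-binding kinase gene 2470 bases upstream of AA875314, with 0.85, 0.98 and 0.89, where the tag had 1.70, 2.22 and 2.02. By kind, 56.5% of the members carry only the accession of a sequence tag or cDNA, against 32.3% of probes well above background and 18.3% of the 986 lower ones. Placed members were spread over the chromosomes, with 11.0% on chromosome 2 (6.71% of background probes), 6.28% on 13 (3.12%) and 0.524% on 12 (2.65%).

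Gene lists for the tissue and drug held few members, where members make up 0.488% of the array, and no test was made of this. Of 61 lists and families, 15 had a member. The lists of NRF2 targets (29 genes measured, with Gsta1), interferon-stimulated genes (21, Ifit1), retinoid genes (15, Aldh1a1), matrix and proteoglycan genes (31, Ogn) and growth factor binding and TGF-beta genes (25, Igfbp4) each had 1. With the brightest probe standing for a gene, 0 of their genes passed limma with adjustment over all probes in either direction at any concentration. Over all probes 0.242% passed at concentration 1 (0.0513% as higher), 0.126% at 1/5 (0.0485%) and 0% at 1/25. At an unadjusted p under 0.05 the NRF2 list had 2, 8 and 5 genes at 1, 1/5 and 1/25, the interferon list 8, 6 and 4, and the matrix list 6, 13 and 3, where all probes had 5107, 11516 and 3632 of about 35056. Medians over all probes were -0.12, -0.15 and -0.06. List medians were -0.08, -0.20 and -0.16 for NRF2 targets, -0.14, 0.14 and -0.17 for interferon-stimulated genes and -0.09, 0.42 and -0.02 for retinoid genes. They were -0.37, -0.22 and 0.06 for matrix genes and -0.19, -0.38 and -0.15 for growth factor binding and TGF-beta genes. Of 277 solute carrier genes 2 were members, and of 16 aldo-keto reductases 1, where Akr1c14 and Akr1c15, left out by the rule, passed as higher at concentration 1 (limma adjusted p = 0.042 and 0.027) and Akr1c15 also at 1/5 (adjusted p = 0.0057). Akr1c15 was higher by 2.29 and 3.04, and no size is given for Akr1c14, which was well above background on only 7 of 20 arrays. Homeobox genes numbered 51 with Hoxa9 alone, and prostanoid synthesis and receptor genes had no member.

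Promoters were found in RefSeq (GRCr8) for 43 of the 51 named members, each a window of 300 bases around the start. The E-box CACGTG, read the same on both strands, was in 8 of them (18.6%), against 6.65% of 27457 promoters: Hoxa9, Rgs7, Ankrd55, Map7d2, Ceacam4, Kidins220, Nrsn1 and Lpar3. TATAAA, on both strands like the motifs that follow, was in 25.6% against 14.3%, CCAAT in 39.5% against 37.7%, GGGCGG in 41.9% against 34.9%, and TGACG in 16.3% against 22%. TGACNNNGC was in 11.6% against 12.2%, TGANTCA in 4.65% against 7.33% and the interferon-stimulated response element in 0 of 43 against 3.77%. The median GC content of the promoters was 55% for members and 52.3% for all. The promoters of Hoxa9 (GRCr8, chr4:82656999-82657298, minus strand) and Rgs7 (chr13:89941001-89941300, minus strand) are shown, 5′ to 3′ with the E-box in capitals, as the highest-ranked members that hold it, at -78 and -95 from the start. The match is a description of letters and not of binding.
Hoxa9 promoter: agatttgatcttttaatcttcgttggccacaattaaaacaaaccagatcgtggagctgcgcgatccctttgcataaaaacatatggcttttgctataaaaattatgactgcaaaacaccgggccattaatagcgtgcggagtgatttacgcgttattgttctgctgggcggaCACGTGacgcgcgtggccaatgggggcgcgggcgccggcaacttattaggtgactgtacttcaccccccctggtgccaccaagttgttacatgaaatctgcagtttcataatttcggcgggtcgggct
Rgs7 promoter: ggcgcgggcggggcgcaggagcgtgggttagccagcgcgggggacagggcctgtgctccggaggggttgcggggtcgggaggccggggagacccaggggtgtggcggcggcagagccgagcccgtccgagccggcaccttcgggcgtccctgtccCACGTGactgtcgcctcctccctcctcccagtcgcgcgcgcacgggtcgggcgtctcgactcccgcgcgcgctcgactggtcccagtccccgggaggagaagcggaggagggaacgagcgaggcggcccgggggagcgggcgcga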

How the data were processed

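Scanner files of 20 arrays were read. Per the file headers, their intensity values came from Agilent Feature Extraction 9.5.3.1, and the processed signal is background-subtracted and detrended but not scaled between arrays. The ratio table deposited by the authors was compared with the scanner values: 99.8% of its values lay within 0.05 (log2) of the array-median-scaled signal over the untreated mean, once column medians (0.859 to 1.85, linear) were taken off. It served as an alternative.

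Spots of a probe were averaged after log2 and subtraction of the array's 75th percentile. Group means of all 20 arrays were fitted together with limma (3.58.1, R 4.3.3), leaving out outlier spots. Tests were two-sided with Benjamini-Hochberg adjustment at 0.05, over probes for which some group had a signal well above background on each of its arrays. Array numbers limit the precision. The code was tested on simulated data. Members and gene lists were chosen with earlier results of these data known. Named genes are the 24 highest-ranked named members, members of the lists, list genes past the threshold and probes at the limits. Others, such as opposite-strand partners, were chosen after their values were seen. Positions are on build rn3 as in the files. Symbols were updated through RefSeq by accession (10861 probes), symbol (5542) or synonym (3704). Alternatives covered background correction, scaling, filters, blocks, array weights and each array left out, and those for GC content and the 4 dim arrays were chosen after seeing the data. Python 3.11.15, pandas 2.3.3, numpy 2.4.6 and matplotlib 3.10.9 were used.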

Additional observations from a re-analysis of the deposited data

How the results depend on the processing

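The number of probes that met the rule, 703, depended on the scaling: it was 1199 after quantile normalization, 2599 with the array median in place of the 75th percentile, 2604 in the deposited table, 1883 after GC adjustment and 311 without the 4 dim arrays. Leaving out single arrays gave 351 (without the first array of 1/25 for 24 h) to 1146 (without the second). The count of members above 0.8 was 119 without the 4 dim arrays and 177 to 200 with single arrays left out. Leaving out all 4 keeps only the second array of 1/5 for 24 h in its group. The median of treated minus untreated was 1.03 with the array median and with the deposited table, 0.54 without the 4 dim arrays and 0.70 to 0.90 with single arrays left out, always above 0. Members passing against untreated numbered 22 with array weights, those between concentrations at 24 h 71 with slide as a random block, 108 with array weights and 0 to 77 with single arrays left out, the most without the second array of 1/5, and those at 6 h 41 with array weights. The settings that called many members between concentrations also called up to 17692 of 35058 probes. Whether replicate numbers pair the arrays was not settled. The median correlation of deviations was -0.03 over 57 pairs of the same number, 12 of them over 0.1, and 0.03 over other pairs. Single correlations ran from -0.76 to 0.64 and from -0.66 to 0.63, so a median near 0 cannot exclude shared cultures. With the replicate number as a block 0 members passed against untreated or between concentrations, and the median against untreated was 0.76. Signal near background limits 9 members to bounds, and 24 were saturated on 1 or more arrays.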
